A study of Macaca mulatta with 102 samples.

Results

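IL12RB1, IL12RB2 and IL18RAP encode chains of the receptors for interleukin-12 and interleukin-18, and their transcripts were followed in blood T cells of rhesus macaques after hematopoietic cell transplantation. They were read by every probe set that the platform annotation pairs with one of these genes alone, which gave 7 of the 52865 probe sets on the array, for 3 of the 14133 genes it names this way. IL12RB1 had 2 of them, IL12RB2 had 4 and IL18RAP had 1. All 7 passed the filter on low values, as did 31703 probe sets in all, and the values of these genes played no part in choosing the samples or groups.

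Interleukin-12 is made mainly by dendritic cells and macrophages and binds a receptor of both IL12RB1 and IL12RB2. IL12RB1 associates with the kinase TYK2 and is also a chain of the interleukin-23 receptor. IL12RB2 associates with JAK2 and carries the docking site for STAT4. Interleukin-18 binds IL18R1, and IL18RAP then joins as the accessory chain, from which MYD88 and the IRAK kinases pass the signal to NF-kB. In T cells and NK cells the receptors are known for driving interferon gamma production together. Resting naive T cells hold little IL12RB2, and T cell receptor stimulation is known to induce it.

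Affymetrix rhesus arrays were hybridised with RNA of blood T cells sorted for CD3, 102 arrays in all from 66 animals in 16 groups. Recipients of donor cells fell into 6 sets, by the drugs given against graft-versus-host disease or the lack of them. The sets differ also in the day of sampling. KY1005, an antibody against OX40 ligand, combined with the mTOR inhibitor sirolimus was sampled as KY1005.Siro.D14 (5 arrays, day 14), KY1005.Siro.D28 (5 arrays, day 28) and KY1005.Siro.F (4 arrays, days 97 to 106). KY1005 without another drug was sampled as KY1005.D14 (2 arrays, days 14 to 16) and as KY1005.F (3 arrays, days 16 to 23). Belatacept, which blocks costimulation through CD28, made up with sirolimus the groups Bela.Siro.D14 (3 arrays), Bela.Siro.D30 (2 arrays) and Bela.Siro.F (7 arrays, days 26 to 105). Recipients of tacrolimus and methotrexate were sampled as Tac.Mtx.D14 (3 arrays) and as Tac.Mtx.F (3 arrays, days 26 to 67). Sirolimus without another drug made up Siro.F (4 arrays, days 12 to 24), and animals without prophylaxis made up NoRx.F (4 arrays, days 6 to 12). Autologous recipients, given back their own cells, were sampled as Auto.D14 (3 arrays), Auto.D36 (4 arrays, days 30 to 36) and Auto.D100 (4 arrays). Healthy untransplanted animals gave 46 arrays from 45 animals, since the healthy arrays of R.201 were averaged. The final F of a name is not spelled out in the labels and is kept. Ages, conditioning and donors are not given in the sources used here, and the T cells of a recipient of donor cells can be of donor or host origin, which the arrays do not tell apart. Arrays of a group come from separate animals, and 22 animals gave more than one array.

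Levels are log2 intensities as deposited, and differences are log2 differences ± SE from a fit of all groups with the labelled batch as a factor. A difference passed when its limma p, adjusted over the 31703 probe sets, was under 0.05. The levels are of whole samples of sorted cells, so fewer cells that carry a transcript and less RNA per cell cannot be told apart. Levels of different probe sets are not comparable with each other. All KY1005 groups lay in batch 6 with 7 healthy arrays, and all belatacept and tacrolimus groups in batch 3 with 13, while Siro.F and NoRx.F shared batches 1 and 2. Between groups that share no batch the difference rests on the batch term, and batch, regimen and day after transplant cannot be told apart. The mean of 7 core T cell genes lay between 8.77 and 10.1 on all arrays, although the CD3 chain genes were not named by a single-gene probe set here. On 6 arrays, R.201 and R.202 of Auto.D14 and 4 healthy ones, the 3′ actin controls exceeded the 5′ ones by more than 2.5 on the log2 scale, by 2.94 to 3.95, which is called a high actin ratio below.

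Over the 15 groups after transplant, each receptor gene had at least one probe set that varied against healthy animals. The F test over all 15 groups passed for 51.7% of probe sets, so the passing of a single probe set is close to the common case. Of the 7 receptor probe sets 5 passed: the IL12RB2 probe set MmugDNA.20333.1.S1_at (F = 10.3, adjusted p = 2.67e-11), both of IL12RB1, MmugDNA.31598.1.S1_at (F = 5.79, adjusted p = 1.09e-06) and Mmu.3756.1.S1_at (F = 4.45, adjusted p = 4.59e-05), that of IL18RAP, MmugDNA.20354.1.S1_at (F = 2.17, adjusted p = 0.0307), and the IL12RB2 probe set MmuSTS.62.1.S1_at (F = 2.21, adjusted p = 0.0276). The IL12RB2 probe sets MmugDNA.39885.1.S1_at (F = 1.86, adjusted p = 0.0688) and MmugDNA.14229.1.S1_at (F = 1.44, adjusted p = 0.199) did not pass.

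The 4 IL12RB2 probe sets did not move as one. Over the 101 values, MmuSTS.62.1.S1_at and MmugDNA.39885.1.S1_at had a Pearson r of 0.79, while MmugDNA.20333.1.S1_at had r = -0.18 with MmuSTS.62.1.S1_at, -0.01 with MmugDNA.14229.1.S1_at and -0.04 with MmugDNA.39885.1.S1_at. MmuSTS.62.1.S1_at is the brightest of the 4 and represents the gene by the rule used here, and the closer account of MmugDNA.20333.1.S1_at was chosen after its values were seen. Which stretch of the transcript each probe set reads was not analysed here. The values below therefore belong to the probe set named and not to the gene as a whole.

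In recipients without prophylaxis, the IL12RB2 probe set MmugDNA.20333.1.S1_at was far above every healthy animal. The NoRx.F arrays stood at 9.0 (R.53), 10.05 (R.50), 9.03 (R.51) and 10.23 (R.52), against a lowest value of 4.74, a median of 5.83 and a highest of 7.20 in 45 healthy animals. All 4 arrays were high and the groups did not overlap. The difference was 3.63 ± 0.37 (adjusted p = 6.9e-13), a 12.4-fold higher level. Only 14 of the 31703 probe sets, or 0.0442%, had a larger difference upward in this comparison. The difference was 3.92 in batch 1 (3 against 5 arrays) and 3.23 in batch 2 (1 against 10). In 9 of the 45 healthy animals the probe set was under 5.21, the level that marks the middle of the whole table, so the size of the difference is less certain than its direction.

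Several other groups had raised levels of this probe set, at smaller size. Siro.F stood at 7.46 (R.13), 7.15 (R.18), 8.44 (R.17) and 7.91 (R.16), of which only the array of R.18 lay within the healthy range, and the difference from healthy animals was 1.87 ± 0.36 (adjusted p = 0.000146), or 3.67-fold. Tac.Mtx.F stood at 7.55 (R.21), 7.18 (R.20) and 8.24 (R.19), a difference of 1.73 ± 0.41 (adjusted p = 0.00234). Auto.D14 stood at 7.37 (R.201), 7.93 (R.202) and 7.21 (R.200), just above the highest healthy animal, with a difference of 2.16 ± 0.47 (adjusted p = 0.00132). In these groups every array lay above the highest healthy animal except R.18 of Siro.F and R.20 of Tac.Mtx.F, which lay just under it. Auto.D14 also holds both transplant arrays with a high actin ratio. With all arrays of high ratio left out, which leaves R.200 alone in Auto.D14, the difference was 1.85 ± 0.70 (adjusted p = 0.491).

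In the remaining 11 groups the probe set passed in none. The order of the group means placed NoRx.F first at 9.58 ± 0.65 (SD, n = 4), followed by Siro.F at 7.74 ± 0.56 (n = 4), Tac.Mtx.F at 7.66 ± 0.54 (n = 3) and Auto.D14 at 7.50 ± 0.38 (n = 3), with healthy animals lowest at 5.83 ± 0.59 (n = 45). Between neighbours in this order, the gap was larger than the greater of both SDs in 2 of 15 steps: below NoRx.F, by 1.84, and below Auto.D14, by 0.55. The KY1005.Siro.D14 arrays stood at 6.74, 7.19, 5.48, 6.08 and 5.87, and the KY1005.F arrays at 6.22, 6.76 and 6.58, all within the healthy range.

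**Figure D1:**
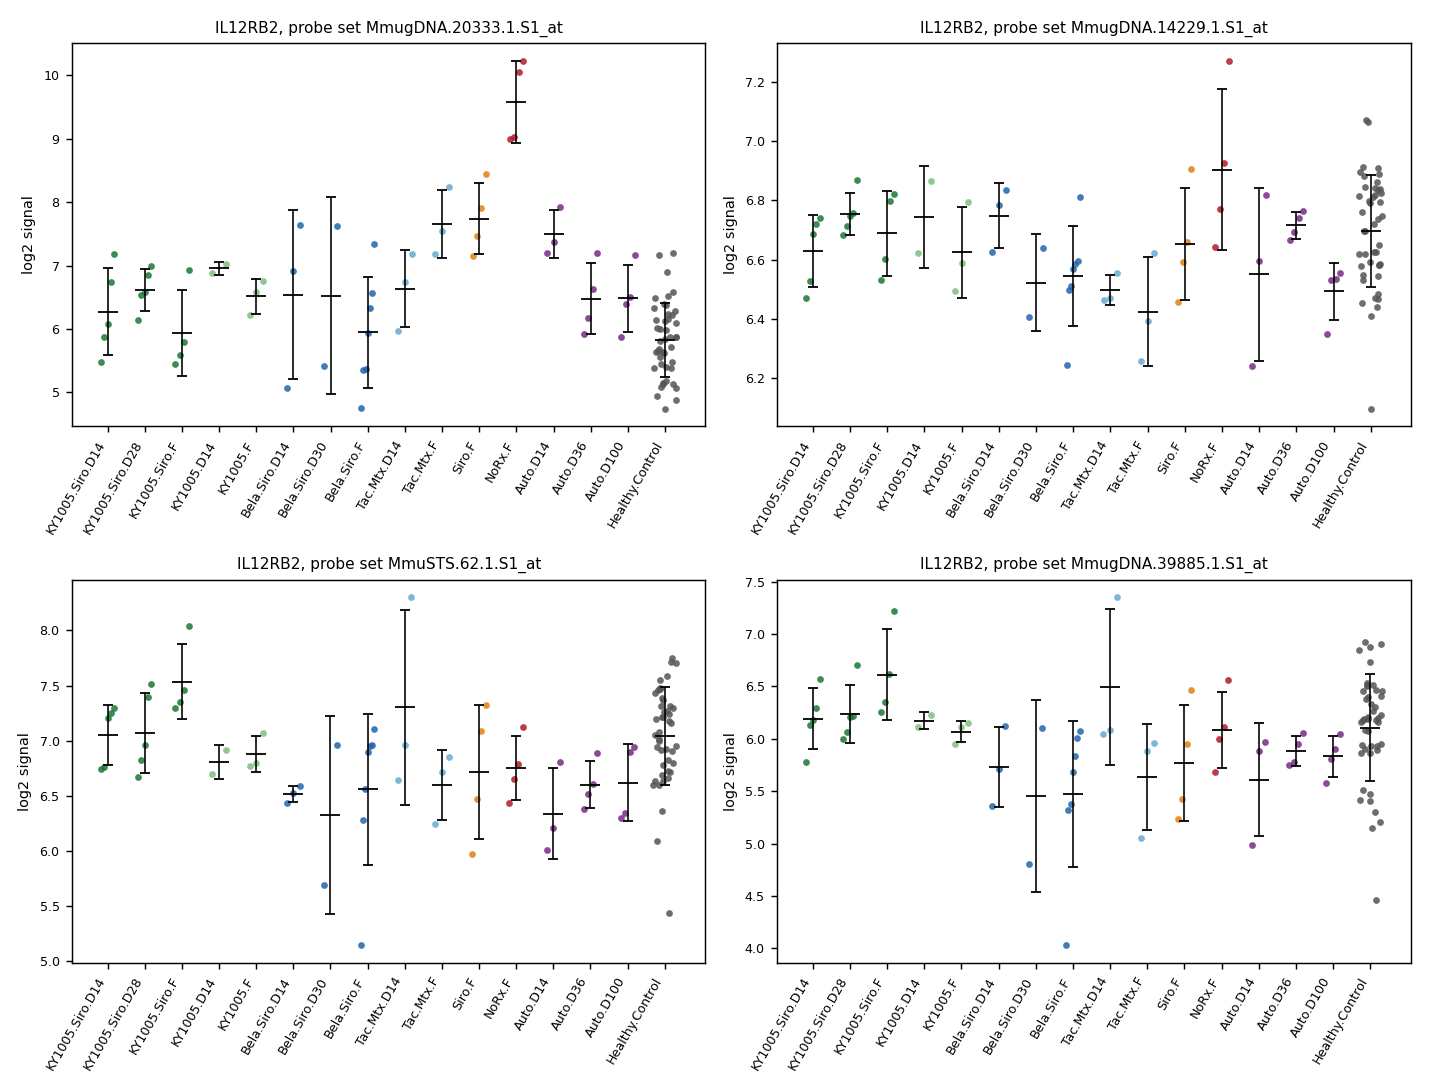
Log2 intensity of the 4 IL12RB2 probe sets, a panel each, in every array (points), with the mean and SD of each group (black bars), groups after transplant on the left and healthy animals on the right. In the panel of MmugDNA.20333.1.S1_at the 4 NoRx.F arrays lie between 9.0 and 10.23, above the highest healthy animal at 7.20, while in the other panels they overlap healthy animals.

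The regimens differed from each other in this probe set as well. Relative to NoRx.F, it was lower in Siro.F by a log2 difference of -1.76 ± 0.45 (adjusted p = 0.00826), in Tac.Mtx.F by -1.90 ± 0.55 (adjusted p = 0.028), in Bela.Siro.F by -3.61 ± 0.48 (adjusted p = 2.59e-08), in KY1005.F by -3.06 ± 0.58 (adjusted p = 0.000256) and in KY1005.Siro.D14 by -3.31 ± 0.53 (adjusted p = 2.97e-06). The last is 9.93-fold lower in KY1005.Siro.D14. In each of these 5 comparisons every array of the treated group lay below every NoRx.F array, and all 5 share the NoRx.F arrays. Only Siro.F shares batches with NoRx.F, and within batch 1 (2 against 3 arrays) and batch 2 (2 against 1) that difference was -1.59 and -1.70. When only Siro.F and NoRx.F entered the fit it no longer passed, at -1.63 (adjusted p = 0.0835). The Tac.Mtx.F difference lost its call in 4 of 7 fits that left out one array, with values from -2.19 to -1.66 over the 7.

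Against autologous recipients at day 14, KY1005.Siro.D14 was lower by -1.84 ± 0.60 in the same IL12RB2 probe set (adjusted p = 0.0412), but this call was lost without the batch term (-1.23, adjusted p = 0.185) and in 5 of 8 fits with one array left out. NoRx.F was higher than Auto.D14 by 1.48 ± 0.60, with all NoRx.F arrays above all Auto.D14 arrays, which did not pass (adjusted p = 0.113) but passed without the batch term (2.08, adjusted p = 0.00168). KY1005.F was lower than Siro.F by -1.31 ± 0.57 (adjusted p = 0.305), also without overlap and also short of the threshold.

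The brighter IL12RB2 probe set MmuSTS.62.1.S1_at showed no difference from healthy animals past the threshold in any of the 15 groups. In NoRx.F it stood at 6.78, 6.65, 7.13 and 6.43, and in healthy animals at a lowest of 5.43, a median of 7.08 and a highest of 7.75. The groups overlapped, and the difference was -0.34 ± 0.27 (adjusted p = 0.391). MmugDNA.14229.1.S1_at passed in no group either, with group means between 6.42 and 6.90. MmugDNA.39885.1.S1_at was lower in Bela.Siro.F by -0.73 ± 0.23 (adjusted p = 0.028). Its arrays there ran from 4.03 over a median of 5.68 to 6.07, against 4.46, 6.19 and 6.92 in healthy animals. The lowest was the array of R.49, and without it the difference was -0.49 (adjusted p = 0.208). The call was also lost without R.42 (-0.70, adjusted p = 0.0573) and without R.67 (-0.71, adjusted p = 0.0556). It was lost as well within batch 3 alone (-0.73, adjusted p = 0.0602) and with only the 2 groups in the fit (-0.73, adjusted p = 0.0577).

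MmuSTS.62.1.S1_at and MmugDNA.39885.1.S1_at were higher in KY1005.Siro.F than in Bela.Siro.F. MmuSTS.62.1.S1_at stood at 7.35, 8.04, 7.30 and 7.46 in KY1005.Siro.F, above all 7 Bela.Siro.F arrays, which ran from 5.14 over a median of 6.89 to 7.11. The difference was 1.24 ± 0.36 (adjusted p = 0.033), and for MmugDNA.39885.1.S1_at it was 1.44 ± 0.38 (adjusted p = 0.0227). Both are batch 6 against batch 3. Without R.49 of Bela.Siro.F they were 1.01 (adjusted p = 0.0924) and 1.19 (adjusted p = 0.0659), without R.219 of KY1005.Siro.F 1.07 (adjusted p = 0.103) and 1.23 (adjusted p = 0.0828). With array weights they were 0.68 (adjusted p = 0.253) and 0.97 (adjusted p = 0.109), and without the arrays of high actin ratio 0.81 (adjusted p = 0.366) and 1.03 (adjusted p = 0.219). Monocyte and myeloid genes had a mean of 10.9 on the array of R.219, and granulocyte genes 9.86, each the highest in any group. Their part in these values was not tested.

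IL12RB1, the chain shared with the interleukin-23 receptor, rose by less and with little spread. Its brighter probe set MmugDNA.31598.1.S1_at stood at 8.08, 7.68, 8.06 and 8.01 in NoRx.F, against 6.84, 7.36 and 7.82 as the lowest, median and highest of healthy animals. Of the 4 arrays 3 lay above every healthy animal. The difference was 0.68 ± 0.15 (adjusted p = 0.000208), or 1.60-fold, and 0.57 and 0.75 within batches 1 and 2. For Mmu.3756.1.S1_at, which stood at 6.99, 7.24, 6.95 and 7.11 in NoRx.F against 6.17, 6.57 and 7.04 in healthy animals, the difference was 0.50 ± 0.12 (adjusted p = 0.00111). The IL12RB1 probe sets had r = 0.63 with each other over the 101 values. In the main fit neither passed with a lower level in any of the 15 groups against healthy animals. They went apart in Auto.D14. Mmu.3756.1.S1_at had its lowest group mean there, 6.43 against 6.56 in healthy animals, and MmugDNA.31598.1.S1_at stood at 7.79 against 7.34. With array weights Mmu.3756.1.S1_at passed there as lower (-0.36, adjusted p = 0.038). Without a batch term MmugDNA.31598.1.S1_at passed there as higher (0.45, adjusted p = 0.0298).

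Autologous recipients near day 36 had a similar rise of IL12RB1. MmugDNA.31598.1.S1_at stood at 7.31 (R.62), 8.22 (R.200), 8.64 (R.201) and 8.26 (R.202), a difference of 0.71 ± 0.15 from healthy animals (adjusted p = 0.000939), and Mmu.3756.1.S1_at differed by 0.65 ± 0.12 (adjusted p = 0.000352). The array of R.62, from batch 2, lay inside the healthy range, and the other 3, from batch 4, above it. Within batch 2 the differences were -0.02 and 0.10 for MmugDNA.31598.1.S1_at and Mmu.3756.1.S1_at, and within batch 4 they were 1.05 and 0.88.

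**Figure D2:**
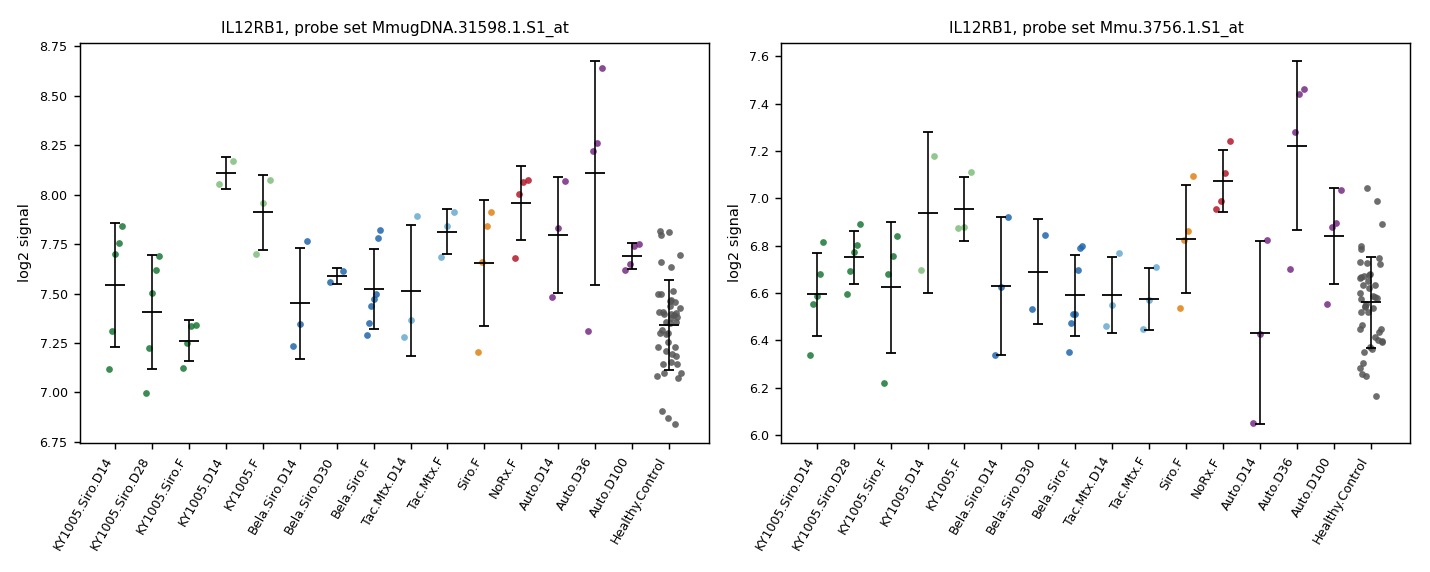
Log2 intensity of the IL12RB1 probe sets MmugDNA.31598.1.S1_at and Mmu.3756.1.S1_at, a panel each, in every array (points), with group means and SDs (black bars) and healthy animals on the right. In MmugDNA.31598.1.S1_at Auto.D36, KY1005.D14, NoRx.F and KY1005.F have the highest means, and the array of R.62 at 7.31 lies apart from the other 3 Auto.D36 arrays.

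With KY1005 alone, IL12RB1 was at a like level. KY1005.F stood at 8.08 (R.211), 7.96 (R.206) and 7.70 (R.212) in MmugDNA.31598.1.S1_at, a difference of 0.59 ± 0.17 from healthy animals (adjusted p = 0.0437). This call was lost without R.211 (0.50, adjusted p = 0.295), without R.206 (0.56, adjusted p = 0.155), without the arrays of high actin ratio (0.56, adjusted p = 0.14) and within batch 6 alone (0.59, adjusted p = 0.0762). Both KY1005.D14 arrays, at 8.17 and 8.05, lay above every healthy animal, and their difference of 0.79 ± 0.20 did not pass (adjusted p = 0.0658). It passed without a batch term (0.77, adjusted p = 0.0158) and with array weights (0.77, adjusted p = 0.000461). KY1005.Siro.D14, at 7.84, 7.31, 7.12, 7.70 and 7.76, overlapped healthy animals, with a difference of 0.22 ± 0.15 (adjusted p = 0.435). The difference of KY1005.F from NoRx.F was -0.09 ± 0.23 (adjusted p = 0.837). In Mmu.3756.1.S1_at the difference of KY1005.F from healthy animals did not pass in the main fit. It passed without a batch term (0.39, adjusted p = 0.0358) and with array weights (0.58, adjusted p = 2.02e-07).

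In order of its mean, MmugDNA.31598.1.S1_at was highest in KY1005.D14 at 8.11 and Auto.D36 at 8.11, then in NoRx.F at 7.96 and KY1005.F at 7.91, while healthy animals came next to last at 7.34 ± 0.23 and KY1005.Siro.F last at 7.26. No step between neighbours was larger than the greater of both SDs. Bela.Siro.F was lower than NoRx.F by -0.54 ± 0.19 in MmugDNA.31598.1.S1_at (adjusted p = 0.0459) and by -0.48 ± 0.16 in Mmu.3756.1.S1_at (adjusted p = 0.0303). With one array left out, these calls were lost in 8 and in 4 of 11 fits, with values from -0.62 to -0.48 and from -0.52 to -0.43. NoRx.F was higher than Auto.D14 by 0.75 ± 0.20 in Mmu.3756.1.S1_at (adjusted p = 0.0117), and by 0.55 (adjusted p = 0.15) without R.201 of Auto.D14. Without all arrays of high actin ratio, which leaves a single array in Auto.D14, it was higher by 0.35. The brighter MmugDNA.31598.1.S1_at did not pass between NoRx.F and Auto.D14. With one array left out its difference ran from 0.03 to 0.33 (adjusted p from 0.43 to 0.968).

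IL18RAP, the accessory chain of the interleukin-18 receptor, was raised after sirolimus alone and without prophylaxis. Siro.F stood at 7.05, 7.58, 7.65 and 7.80 in MmugDNA.20354.1.S1_at, and NoRx.F at 7.40, 7.82, 6.68 and 7.52, against 5.09, 5.97 and 7.96 as the lowest, median and highest of healthy animals. All 8 arrays lay above the healthy median, and all lay within the healthy range. The difference was 1.42 ± 0.42 for Siro.F (adjusted p = 0.019), or 2.67-fold, and 1.26 ± 0.44 for NoRx.F (adjusted p = 0.0228), or 2.40-fold. Within batches 1 and 2 it was 1.73 and 1.10 for Siro.F, and 1.35 and 1.18 for NoRx.F. With one array left out, 3 of 4 fits of each group lost the call, with adjusted p up to 0.0887 for Siro.F and 0.0843 for NoRx.F.

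IL18RAP did not differ detectably between Siro.F and NoRx.F, with a difference of 0.16 ± 0.53 (adjusted p = 0.922). Its group means ran from 5.93 in Tac.Mtx.D14 to 7.52 ± 0.32 in Siro.F (n = 4), with NoRx.F at 7.35 ± 0.48 (n = 4) and healthy animals at 6.07 ± 0.64 (n = 45), and no neighbouring means were farther apart than the greater SD. KY1005.F stood at 7.04, 5.58 and 6.82, below all Siro.F arrays, with a difference of -1.11 ± 0.66 that did not pass (adjusted p = 0.434). KY1005.Siro.D14 stood at 7.88, 6.38, 5.70, 6.07 and 5.74, and its difference from NoRx.F, -1.08 ± 0.62, did not pass either (adjusted p = 0.246).

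**Figure D3:**
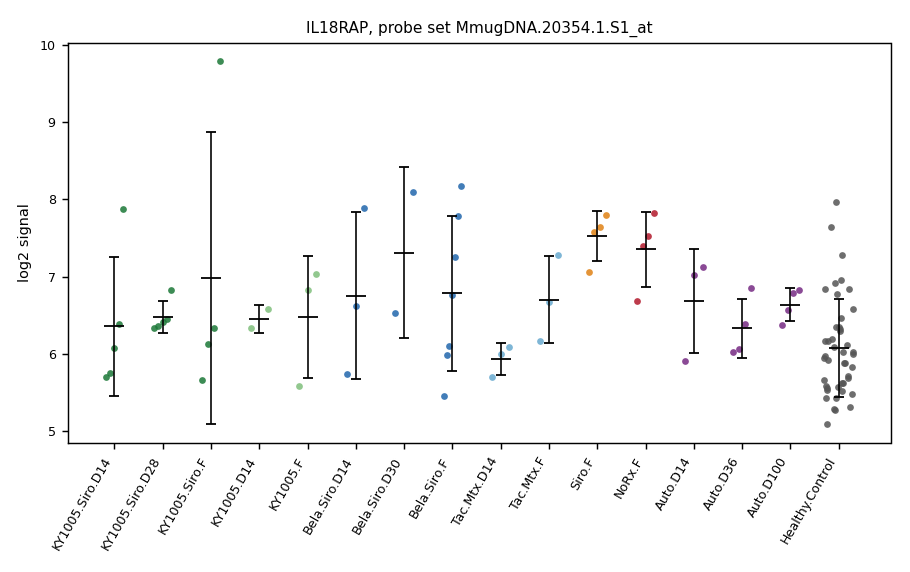
Log2 intensity of the IL18RAP probe set MmugDNA.20354.1.S1_at in every array (points), with group means and SDs (black bars) and healthy animals on the right. Siro.F and NoRx.F have the highest means, the healthy animals spread from 5.09 to 7.96, and R.219 of KY1005.Siro.F stands apart at 9.79.

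Counted over the 7 receptor probe sets, NoRx.F held the largest number of calls against healthy animals, and it is also the group with the largest share of all probe sets passing. In NoRx.F 4 of 7 were higher and none lower (27.5% of all probe sets passed), in Siro.F 2 were higher (8.9%), in Auto.D36 2 (9.26%), in Auto.D14 1 (19.4%), in Tac.Mtx.F 1 (14.3%) and in KY1005.F 1 (3.28%), and in Bela.Siro.F 1 was lower (10%). In 8 groups none passed. These were KY1005.Siro.D14 (4.15% of all probe sets, and 0 of the 7 with an unadjusted p under 0.05), KY1005.Siro.D28 (12.1%, and 1), KY1005.Siro.F (6.84%, and 2), KY1005.D14 (0.202%, and 2), Bela.Siro.D14 (2.68%, and 1), Bela.Siro.D30 (1.14%, and 3), Tac.Mtx.D14 (0.88%, and 0) and Auto.D100 (2.48%, and 3).

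**Figure D4:**
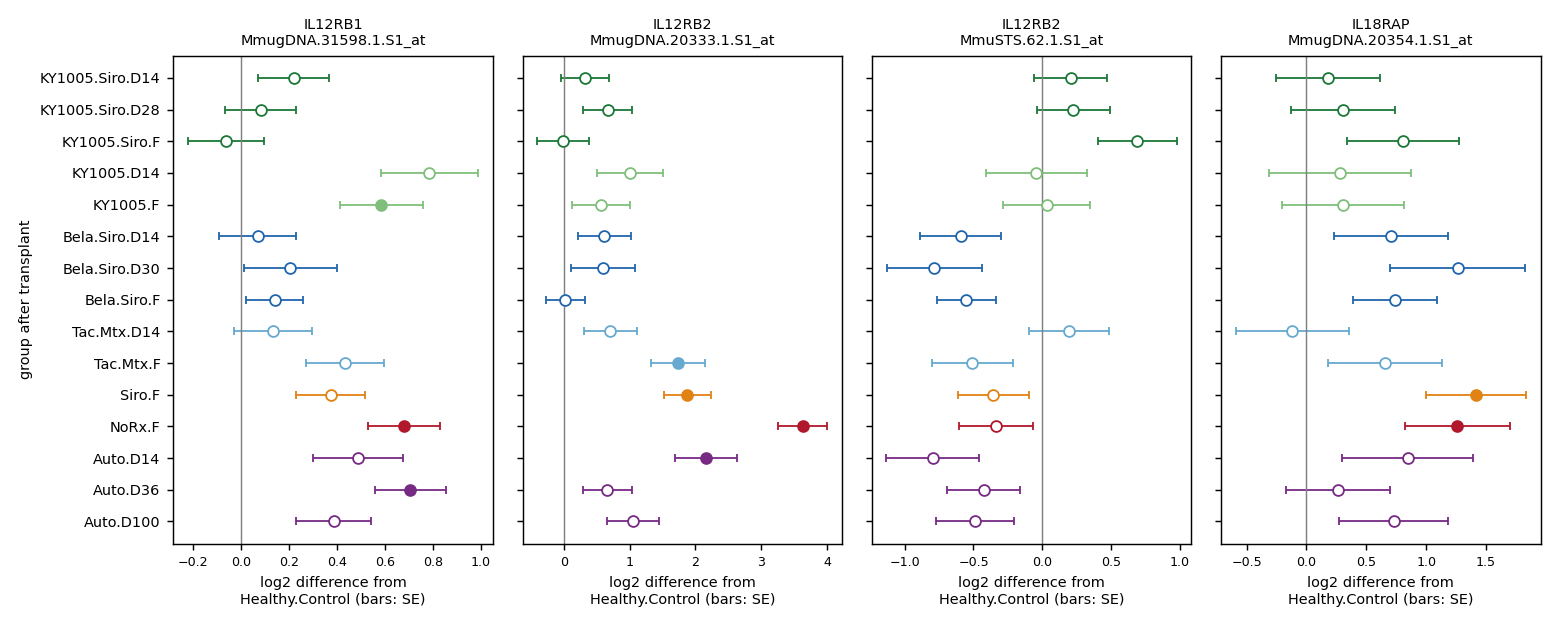
Log2 difference of each group after transplant from healthy animals, with SE, for IL12RB1 (MmugDNA.31598.1.S1_at), IL12RB2 (MmugDNA.20333.1.S1_at and MmuSTS.62.1.S1_at) and IL18RAP (MmugDNA.20354.1.S1_at). Filled points passed the threshold. The largest is the NoRx.F difference of 3.63 for MmugDNA.20333.1.S1_at, and MmuSTS.62.1.S1_at has no filled point.

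Between regimens, the counts of the 7 that passed were as follows. Relative to NoRx.F, 1 was lower in Siro.F (6.46% of all probe sets passed), 1 in Tac.Mtx.F (5.19%), 3 in Bela.Siro.F (14%), 1 in KY1005.F (8.75%) and 1 in KY1005.Siro.D14 (15.6%), and none was higher in any of these. In NoRx.F 1 was higher than in Auto.D14 (7.5%), and in KY1005.Siro.D14 1 was lower than in Auto.D14 (8.88%). In KY1005.Siro.F 2 were higher than in Bela.Siro.F (4.99%). None passed for KY1005.F against Siro.F (0.00946% of all probe sets, and 1 of 7 with an unadjusted p under 0.05), for KY1005.Siro.D14 against Tac.Mtx.D14 (0.155%, and 0) or Bela.Siro.D14 (0.0631%, and 1), or for KY1005.Siro.F against Auto.D100 (7.19%, and 3).

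Over time within a regimen, a receptor probe set changed past the threshold in one comparison only, that of autologous recipients. The IL12RB1 probe set Mmu.3756.1.S1_at was higher in Auto.D36 than in Auto.D14 by 0.90 ± 0.20 (adjusted p = 0.00308, with 7.07% of all probe sets passing). Auto.D36 stood at 6.70, 7.28, 7.44 and 7.46 and Auto.D14 at 6.05, 6.43 and 6.83. The level was higher in 3 of the 3 animals measured at both times, by 0.46 to 1.39. With the animal as a fixed replicate block the difference was 0.96 (adjusted p = 0.0807). Without R.201 of Auto.D14, an array of high actin ratio, it was 0.70 (adjusted p = 0.0803). Without all arrays of high actin ratio, which leaves R.200 alone in Auto.D14, it was 0.49. These groups share no batch, and with only these groups and no batch term it was 0.79 (adjusted p = 0.246). The brighter IL12RB1 probe set MmugDNA.31598.1.S1_at did not pass. It was higher in 3 of 3 animals, by 0.15 to 1.16, with fitted differences from 0.06 to 0.57 when one array was left out.

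The IL12RB2 probe set MmugDNA.20333.1.S1_at went the other way in these animals. It was lower in Auto.D36 than in Auto.D14 in 3 of 3 animals, with changes from -2.01 to -0.17. It was also lower in Auto.D100 than in Auto.D14 in 3 of 3, with changes from -2.05 to -0.81. The Auto.D14 arrays of R.201 and R.202 had a high actin ratio, and the largest changes were those of R.202. In R.200 the changes were -0.58 and -0.81. The fitted differences, -1.49 ± 0.60 (adjusted p = 0.112) and -1.11 ± 0.49 (adjusted p = 0.153), did not pass. For Auto.D100 against Auto.D14 7.35% of all probe sets passed and 0 of the 7, with 2 at an unadjusted p under 0.05. For Auto.D100 against Auto.D36 0% of all passed, with 1 of the 7 at an unadjusted p under 0.05.

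After tacrolimus with methotrexate, MmugDNA.20333.1.S1_at and IL18RAP were higher at the later sampling in 3 of 3 animals, by 0.37 to 2.27 and by 0.46 to 1.28. The fitted differences of Tac.Mtx.F from Tac.Mtx.D14 were 1.03 ± 0.52 (adjusted p = 0.849) and 0.77 ± 0.61 (adjusted p = 0.935), where 0.00631% of all probe sets passed. The IL12RB2 probe sets MmuSTS.62.1.S1_at and MmugDNA.39885.1.S1_at were lower at the later sampling in 3 of 3 animals, with changes from -1.46 to -0.25 and from -1.47 to -0.12, and did not pass either (-0.70 ± 0.37, adjusted p = 0.856, and -0.86 ± 0.40, adjusted p = 0.81). After KY1005 with sirolimus none of the 7 passed between day 28 and day 14 (0.00946% of all), between KY1005.Siro.F and day 28 (1.85%) or between KY1005.Siro.F and day 14 (1.25%), and 0 of 7 had an unadjusted p under 0.05 in each. The same held for Bela.Siro.F against Bela.Siro.D14 (0.00315%) and for KY1005.F against KY1005.D14 (0%). The change from day 14 to the last sampling in KY1005.Siro did not differ detectably from that in autologous recipients, where the interaction gave 0% of all probe sets and 0 of 7 at an unadjusted p under 0.05.

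For 11 animals a healthy array was also measured, and 18 arrays after transplant could be set against the animal's own. The IL12RB2 probe set MmugDNA.20333.1.S1_at was higher after transplant in 17 of 18, with a median change of 0.90. IL18RAP was higher in 15 of 18 (median 0.60), and IL12RB1 in 15 of 18 for MmugDNA.31598.1.S1_at (median 0.42) and 14 of 18 for Mmu.3756.1.S1_at (median 0.28). The other IL12RB2 probe sets were higher in 3 (MmuSTS.62.1.S1_at, median -0.35), 4 (MmugDNA.39885.1.S1_at, median -0.26) and 8 (MmugDNA.14229.1.S1_at, median -0.10). These counts mix regimens and hold several arrays of some animals, so they were given no test. Autologous recipients gave most of the arrays, and the Auto.D14 arrays of R.201 and R.202 had a high actin ratio. The changes carry no batch term, and some pairs lie in different batches. Among these are the Auto.D14 and Auto.D100 arrays of R.200, R.201 and R.202, and those of R.206 and R.16.

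Single animals differed in the size of the change. In R.53, sampled without prophylaxis, MmugDNA.20333.1.S1_at was 3.87 above its own healthy array and IL18RAP 1.69 above. In the sirolimus recipients with both arrays MmugDNA.20333.1.S1_at was higher in 3 of 3, by 0.74 to 1.82. IL18RAP was higher in 2 of 3, with changes from -0.16 (R.16) to 1.99. The healthy array of R.16 had the highest IL18RAP level of all healthy animals, 7.96. R.49, given belatacept with sirolimus, was 2.58 above its own healthy array in Bela.Siro.D14 for MmugDNA.20333.1.S1_at and 2.27 above in Bela.Siro.F. For IL18RAP it was 2.81 and 2.70 above. Its healthy array had the lowest IL18RAP level of the 45 healthy animals, 5.09. For MmugDNA.20333.1.S1_at that array stood at 5.06, under the level of 5.21. After transplant R.49 was the highest of both groups for MmugDNA.20333.1.S1_at, and neither group passed as higher than healthy animals in either probe set. R.206, given KY1005 alone, was 0.89 above for MmugDNA.20333.1.S1_at and had a change of -1.27 for IL18RAP.

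Healthy animals differed among themselves most in IL18RAP, with an SD of 0.64, and in MmugDNA.20333.1.S1_at, with 0.59, and least in Mmu.3756.1.S1_at and MmugDNA.14229.1.S1_at, each with 0.19. Animals with more IL18RAP also had more of MmugDNA.20333.1.S1_at. Over the 45 animals Pearson's r was 0.71 (permutation p = 1e-05, the smallest that 100000 permutations can give, adjusted p = 6e-05) and Spearman's rho 0.64 (permutation p = 2e-05, adjusted p = 0.00012). It was 0.59 without the 2 animals farthest from the median of IL18RAP, 0.72 with batch means removed, and 0.81, 0.89, 0.55 and 0.69 within batches 2, 3, 4 and 6 (10, 13, 6 and 7 animals). The 3 pairs with MmugDNA.20333.1.S1_at were added after the data were seen, and the adjustment is over the 6 pairs computed, two-sided.

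IL12RB1 was related to both more weakly. MmugDNA.31598.1.S1_at had r = 0.39 with IL18RAP (permutation p = 0.00812, adjusted p = 0.02, rho = 0.31 with adjusted p = 0.0818) and r = 0.38 with MmugDNA.20333.1.S1_at (permutation p = 0.01, adjusted p = 0.02, rho = 0.34 with adjusted p = 0.0711). Without the 2 farthest animals r was 0.55 and 0.51. With batch means removed r was 0.40 and 0.37 (adjusted p = 0.0214 and 0.0232 from the permutation test). Within batches 2, 3, 4 and 6 it was 0.49, 0.77, -0.25 and -0.09 with IL18RAP, and 0.74, 0.63, 0.04 and 0.13 with MmugDNA.20333.1.S1_at. In batches 4 and 6 r was thus small or negative. These hold only 6 and 7 animals, too few to decide whether the relations held there, and no test was made within batches. MmuSTS.62.1.S1_at had r = -0.13 with IL12RB1, -0.12 with IL18RAP and -0.02 with MmugDNA.20333.1.S1_at, with adjusted p of 0.518, 0.518 and 0.916 from the same permutation test.

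**Figure D5:**
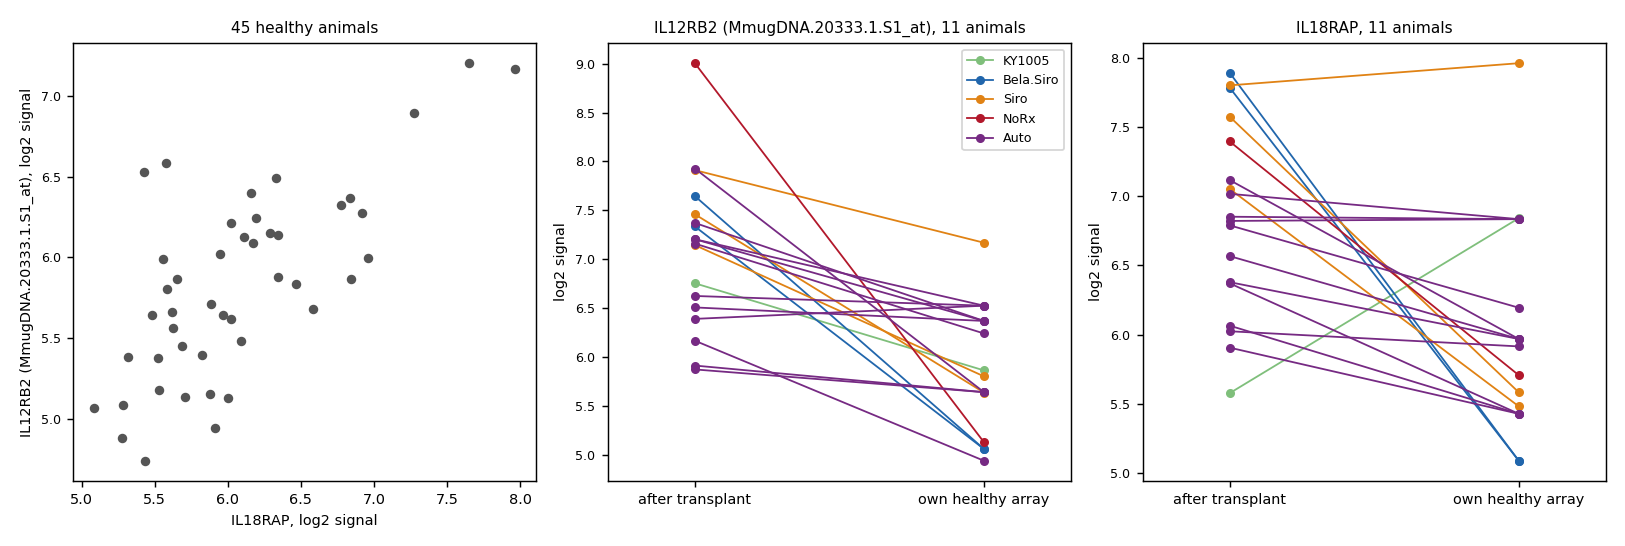
IL18RAP (horizontal) against the IL12RB2 probe set MmugDNA.20333.1.S1_at (vertical), both log2 intensity, in 45 healthy animals, and both probe sets in 18 arrays after transplant (left) joined to the same animal's healthy array (right). The points of the first panel rise together (r = 0.71), and 17 of 18 lines of MmugDNA.20333.1.S1_at are higher after transplant.

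By likeness over the 101 values, which share groups and batches, the genes nearest to MmugDNA.20333.1.S1_at were PSMB2 (r = 0.76), a proteasome subunit, and DCUN1D5 (0.76). Next came PMVK (0.74), an enzyme of sterol synthesis, YARS1 (0.74), the tyrosyl-tRNA synthetase, and SEC61B (0.73), a subunit of the translocon. Over the 45 healthy animals alone, r with these genes was lower, at 0.36, 0.42, 0.25, 0.24 and 0.43 in the same order. Nearest to IL18RAP were ADAM19 (0.66), ZDHHC18 (0.65), ST14 (0.63), SAMSN1 (0.63) and LPGAT1 (0.63). Those nearest to IL12RB1, by MmugDNA.31598.1.S1_at, were TPX2 (0.75), a spindle assembly factor, SLC41A3 (0.70), EIF4E2 (0.69), PPIF (0.68) and SNRNP25 (0.68). For Mmu.3756.1.S1_at they were ACTR1A (0.70), RHOF (0.68), EML2 (0.65), MAGT1 (0.64) and RAB1B (0.64), and for MmuSTS.62.1.S1_at KMT2C (0.75), GPATCH8 (0.69), BRWD3 (0.68), EPB41 (0.68) and SORL1 (0.67).

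Of the ligands and other receptor chains, IL18 itself was the one that moved most in NoRx.F. Among genes, 19% were higher and 15.2% lower in NoRx.F than in healthy animals, with a median difference of 0.05. IL18 rose by 2.25 ± 0.46 (adjusted p = 5.85e-05), and of 6 measured genes of the interleukin-18 and interleukin-1 family 1 rose and 1 fell, the decoy receptor IL1R2 at -1.50 (median 0.12). Of 7 ligand and receptor genes of interleukins 12, 23 and 27, 0 rose and 1 fell, IL27RA at -0.59 (median -0.03). IL18R1, IL12A, STAT4 and MYD88 were not named by a single-gene probe set here.

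Downstream of the receptors little passed in NoRx.F. Of 7 measured genes of interleukin-12 signalling 0 rose and 1 fell, CISH, a feedback inhibitor of cytokine receptors, at -1.21 (adjusted p = 0.0137), while JAK2 differed by 0.57 (adjusted p = 0.0511) and TYK2 by 0.16. Of 9 genes of interleukin-18 signalling 0 rose and 1 fell, TAB2, an adaptor of the TAK1 kinase, at -1.17. Among 21 genes of the type 1 response, to which these receptors are linked, 6 rose and 0 fell (median 0.28), with GNLY at 2.09 and GZMB at 1.70, both of cytotoxic granules, and CXCR3, a chemokine receptor, at 1.51. IFNG differed by 1.03 (adjusted p = 0.163) and TBX21, a transcription factor of this programme, by 0.26.

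In Siro.F 6.04% of genes were higher and 4.92% lower than in healthy animals, with a median of 0.02. IFNG rose by 1.56 (adjusted p = 0.0444) and EOMES, a transcription factor of cytotoxic cells, by 1.04, among 5 of 21 type 1 genes that rose and 0 that fell (median 0.48). CISH and JAK2 rose by 1.22 and 0.70, as 2 of 7 genes of interleukin-12 signalling, and NFKB1 by 0.66, as 1 of 9 of interleukin-18 signalling. IL1RL1, the interleukin-33 receptor, rose by 0.64 and IL1R2 was lower, at -0.60, as 1 and 1 of 6 genes of that family, while IL18 differed by 1.07 (adjusted p = 0.116). None of 7 ligand and receptor genes of interleukins 12, 23 and 27 passed.

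Between KY1005.Siro.D14 and NoRx.F 7.21% of genes were higher and 12.2% lower, with a median of -0.07. IL18 was lower in KY1005.Siro.D14 by -2.30 (adjusted p = 0.00789) and IL1B higher by 2.43, as 1 and 1 of 6 genes of that family. Of the 21 type 1 genes 0 were higher and 5 lower (median -0.59), with GNLY at -2.37, CXCR3 at -2.02 and GZMB at -1.86, while IFNG at -1.85 did not pass (adjusted p = 0.0922). CISH was higher by 2.23 as 1 of 7, and of 9 genes of interleukin-18 signalling TAB2 was higher by 1.54 and TAB1 lower by -0.60. None of the 7 ligand and receptor genes of interleukins 12, 23 and 27 passed.

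Genes of cell division and markers of other cells moved in the same comparisons, and their part in the receptor differences was not tested. In NoRx.F 13 of 13 cell cycle genes rose (median 2.57, MKI67 at 3.30), in Siro.F 12 of 13 (median 1.09), and 12 of 13 were lower in KY1005.Siro.D14 than in NoRx.F (median -2.04). The mean of these genes ran from 8.44 to 9.74 in NoRx.F, from 7.18 to 9.01 in Siro.F and from 6.08 to 7.42 in healthy animals. Of 9 NK cell genes, which share both receptors with T cells, 1 rose in NoRx.F and 2 fell, with FGFBP2 at 2.03 and KLRF1 at -2.79. The mean of the NK cell genes lay between 7.90 and 8.52 in NoRx.F, between 7.59 and 9.81 in Siro.F and between 7.59 and 10.1 in healthy animals.

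Of 7 core T cell genes 2 rose in NoRx.F, CD8A at 0.73 and CD8B at 1.12, and 1 fell, CD5 at -0.48, while CD4 differed by -0.15 and did not pass. Of 9 monocyte and myeloid genes 3 rose, S100A9 at 4.73, S100A8 at 4.48 and FCN1 at 2.16 (median 1.77), and their mean lay between 6.14 and 9.06 in NoRx.F, between 6.08 and 7.37 in Siro.F, between 7.52 and 9.11 in KY1005.Siro.D14 and between 4.76 and 7.85 in healthy animals. In Siro.F 0 of 9 myeloid and 0 of 9 NK cell genes passed. In NoRx.F the B cell gene CD79B rose by 0.97 as 1 of 5, the plasma cell genes MZB1 and XBP1 by 1.25 and 0.58 as 2 of 4, and 0 of 5 granulocyte genes passed.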

How the data were processed

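Sorted CD3-positive blood T cells were measured on Affymetrix rhesus arrays with a kit that labels RNA from its 3′ end. The deposited values are log2 intensities made with RMA in affy, per the submitters' processing notes, and versions and parameters are not given in the sources used here. An F test for batch over healthy animals gave p under 0.05 for 0.274% of probe sets and over 0.95 for 24.9%, with 5% expected of each. Batch had probably been removed before deposition, and the batch term here then acts a second time. Array medians ran from 5.13 to 5.35. The number of arrays limits the precision.

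After 158 control probe sets were left out, a probe set was kept if 3 or more of its 101 values were at or above 5.21 (the table's median), which left 31703. Groups and batch were fitted together in limma 3.58.1 (R 4.3.3, and data.table in version 1.17.8), with empirical Bayes (80 residual and 3.38 prior degrees of freedom) and Benjamini-Hochberg adjustment over 31703 probe sets at 0.05, in 36 comparisons, an interaction and an F test. The fit was tested on simulated data. Correlations, plots and summaries used Python 3.11.15 with numpy 2.4.6, pandas 2.3.3, scipy 1.17.1 and matplotlib 3.10.9.

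Gene names come from the platform annotation (24969 probe sets name one gene and 361 name more), and a gene was represented by its brightest single-gene probe set (10718 genes). Genes are named by a rule: all probe sets of the receptor genes, the 5 genes most correlated with each, up to 4 members of a list past the threshold, and fixed genes of the pathway. The members, lists and tests were chosen with earlier results of these data known. Residuals correlated within an animal, with a median of 0.183 over 51 pairs of arrays, 30 of them above 0.1, against -0.0054 for different animals, so the animal, as the labels give it, was also fitted as a replicate block. The arrays of R.201 before transplant differed by an SD of 0.243 over probe sets, against at least 0.396 for other healthy pairs, and were averaged. Other alternatives changed the batch term, samples, filter, normalization, prior, array weights and probe set of a gene, or left out arrays. Sequences and coordinates were not used here.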

Additional observations from a re-analysis of the deposited data

Results flagged for a closer look

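Single arrays stood far from the rest of their group in 5 of 56 tests made of a probe set within a group of 4 to 10 arrays, where chance alone gives about 1 in 20. In KY1005.Siro.F the array of R.219 had an IL18RAP level of 9.79, against 6.34 for the next highest of 4. It also had the lowest mean of the core T cell genes in any group, at 8.77. Its means of the monocyte and myeloid genes, 10.9, and of the granulocyte genes, 9.86, were the highest in any group. Their part in the IL18RAP level was not tested. In KY1005.Siro.D28 the array of R.218 had an IL18RAP level of 6.83, against 6.45 for the next of 5. In Bela.Siro.F the array of R.49 was lowest of 7 for the IL12RB2 probe sets MmuSTS.62.1.S1_at, at 5.14 against 6.28 for the next, and MmugDNA.39885.1.S1_at, at 4.03 against 5.32. In Auto.D100 the array of R.200 had a level of 6.35 for MmugDNA.14229.1.S1_at, against 6.53 for the next of 4.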

How the results depend on the processing

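Of 4500 values recomputed under alternatives 4379 kept their direction and side of the threshold (a change of sign with neither value past it counts as kept), 65 lost the threshold, 54 gained it and 2 reversed, and the causes were not tested. Both reversals are IL12RB2 by the mean of its 4 probe sets in place of MmuSTS.62.1.S1_at, at 0.85 for NoRx.F against healthy animals (adjusted p = 4.9e-05) and -0.66 for KY1005.Siro.D14 against NoRx.F (adjusted p = 0.0448). The mean includes MmugDNA.20333.1.S1_at. The same mean for IL12RB1 in Siro.F was 0.32 (adjusted p = 0.0477). The F test passed for MmugDNA.14229.1.S1_at without a batch term (1.96) and with array weights (2.92), and for MmugDNA.39885.1.S1_at without a batch term (2.07), with array weights (2.21) and without arrays of high actin ratio (2.16). For MmuSTS.62.1.S1_at it no longer passed after a further quantile normalization (1.95).

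The IL12RB1 difference of KY1005.F in MmugDNA.31598.1.S1_at lost its call without the filter (0.59), after quantile normalization (0.49), without arrays of high actin ratio (0.56) and on batch 6 alone (0.59). Leaving out one array gave 0.50 to 0.69 for it, 0.28 to 0.52 for Siro.F in the same probe set (past the threshold without R.17), 1.11 to 1.47 for IL18RAP in NoRx.F and 1.31 to 1.60 in Siro.F. IL12RB1 in MmugDNA.31598.1.S1_at passed in 6 groups without a batch term or with array weights and in 5 by the mean of its probe sets, against 3. With the animal as a random replicate block, MmugDNA.20333.1.S1_at in NoRx.F was 3.65 (adjusted p = 2.93e-13), IL18RAP 1.29 in NoRx.F (adjusted p = 0.019) and 1.40 in Siro.F (adjusted p = 0.0178), and this paired fit changed no call given above.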
